A study of Mus musculus with 12 samples.

Results

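The genes described here encode the lysosomal proton pump, the cathepsins, other lysosomal hydrolases and membrane proteins, and the TFEB family of transcription factors. Members were selected by symbol, with earlier results of these data known. They were every row whose symbol began with Atp6v0 or Atp6v1, every row named Cts followed by a single letter, and 16 listed genes. This gave 43 of the 12284 named genes in the deposited table. They comprised 17 pump subunits (9 of V1 and 8 of V0), 10 cathepsins, 13 other hydrolases and lysosomal proteins, and 3 members of the TFEB family. All 16 listed genes were in the table.

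The study asked what loss of the enzymes ACLY and ACSS2 in hepatocytes does to the liver of mice on a Western diet. DKO mice carried floxed Acly and Acss2 alleles (Acly f/f; Acss2 f/f) and received AAV8-TBG-Cre, a virus that expresses Cre recombinase from the hepatocyte promoter TBG. WT mice carried the same floxed alleles and received AAV8-TBG-GFP, so they were genetically floxed animals with both genes intact. Both groups were injected at 6 to 8 weeks of age and were fed the Western diet for 6 weeks, starting 1 week after injection. Each group had 6 libraries of polyadenylated RNA from whole liver, and the labels do not say whether each library came from a separate mouse. Only hepatocytes were targeted, so macrophages and other liver cells kept both genes. The effect of the Cre virus itself and that of the deletion cannot be told apart in this design.

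Lysosomes digest proteins, lipids and glycogen delivered by endocytosis and autophagy. Their hydrolases work at acid pH, which is set by the vacuolar ATPase: the cytosolic V1 sector hydrolyses ATP and turns a rotor, and the membrane V0 sector carries protons into the lumen. Cathepsins are the main lysosomal proteases. TFEB, TFE3 and MITF enter the nucleus during starvation or lysosomal stress and bind CACGTG-like sequences in the promoters of many of these genes.

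Values are log2 CPM as deposited, a read abundance relative to the size of each library. The sequencing depth of each library is unknown, so precision rests on the spread between libraries. A gene was called when its limma p-value, adjusted by the Benjamini-Hochberg method over all 12284 genes, was below 0.05. Both deleted genes fell. Acss2 stood at 3.59, 4.01 and 5.74 log2 CPM (lowest, median and highest of 6) in DKO livers, against 6.12, 6.35 and 7.45 in WT livers, without overlap (log2 fold change -2.18 with SE 0.33; limma adjusted p = 0.00571). Acly stood at 4.42, 4.65 and 6.60 log2 CPM in DKO livers, against 6.56, 7.51 and 9.35 in WT livers, with the highest DKO library just above the lowest WT library (log2 fold change -2.51 with SE 0.46; limma adjusted p = 0.0165). The 20 hepatocyte markers were all measured, and their summed level was 93800 to 132000 CPM in DKO livers and 113000 to 132000 CPM in WT livers.

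No member was called by limma, whereas 1.74% of all genes were (76 genes rose and 138 fell). At an unadjusted p below 0.05 there were 13 of 43 members (30.2%), against 16.4% of all genes. Of these 13, 10 were higher in DKO livers and 3 were lower, against 7.95% and 8.47% of all genes in these directions. The DKO and WT values of each of the 43 members overlapped, against 2.17% of all genes that did not overlap. In all, 29 of 43 members had a fold change above 0, against 50.8% of all genes. In bulk liver RNA, a change in the number of cells of a type and a change in RNA per cell cannot be told apart.

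**Figure D1:**
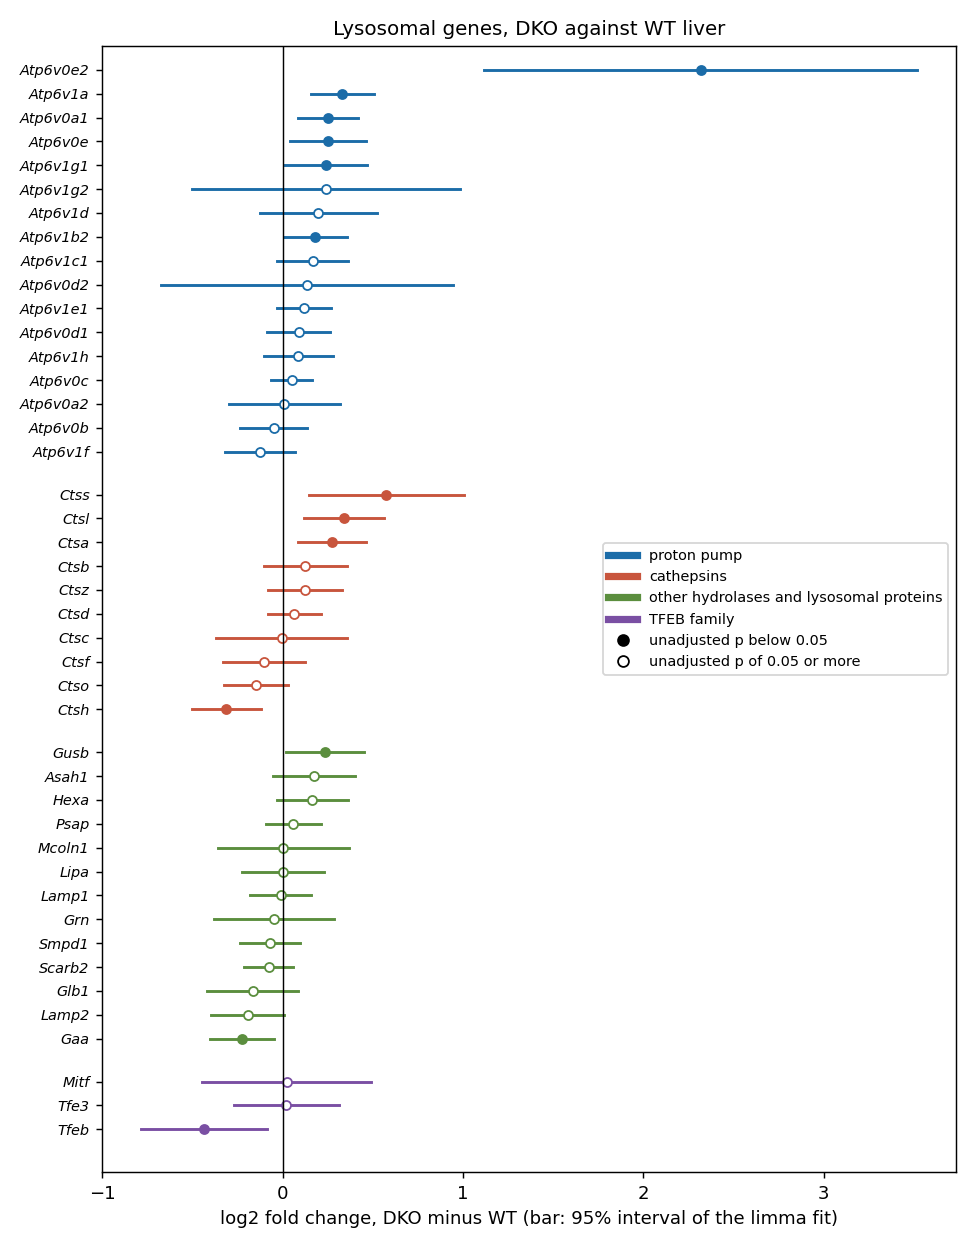
The log2 fold change of each of the 43 members (DKO minus WT) with its 95% interval from limma, coloured by group; filled points had an unadjusted p below 0.05 and none passed the adjusted threshold. The interval of Atp6v0e2 is the widest, and 15 of 17 pump subunits lie above 0.

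Most subunits of the proton pump were slightly higher in DKO livers. Of the 17 subunits, 15 were higher in DKO livers (88.2%, against 50.8% of all genes). The median log2 fold change was 0.17, against 0.00 over all genes. At an unadjusted p below 0.05 there were 6 subunits (35.3%, against 16.4% of all genes). All 6 were higher, against 7.95% of all genes that were higher at this p, but 0 were called, against 1.74% of all genes. The median was 0.18 for the V1 subunits and 0.11 for the V0 subunits. Across the alternative settings the number of higher subunits ranged from 13 to 16, with 13 of 15 after a filter on low values and 13 of 17 without WT replicate 1.

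The catalytic A subunit of V1, Atp6v1a, binds and hydrolyses ATP. Its level was 5.68, 5.85 and 5.97 log2 CPM (lowest, median and highest) in DKO livers, against 5.37, 5.52 and 5.69 in WT livers. In 5 of 6 DKO libraries it lay above every WT library, and DKO 2 alone overlapped. The log2 fold change was 0.33 (SE 0.08), a 1.26-fold difference, with a limma adjusted p of 0.058. Other settings placed it below the threshold: array weights (adjusted p = 0.0218), leaving out WT replicate 1 (0.0434) and leaving out DKO replicate 2 (0.0464); the full range over 20 settings was 0.0218 to 0.129.

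The other V1 subunits differed by less. Atp6v1b2, the non-catalytic B subunit that alternates with A in the head of V1, stood at 5.46, 5.64 and 5.78 log2 CPM in DKO livers, against 5.35, 5.40 and 5.69 in WT livers (log2 fold change 0.18 with SE 0.08; limma adjusted p = 0.289). All 6 DKO libraries exceeded the WT mean, and WT 6 reached into the DKO range. The G subunit Atp6v1g1, part of the outer stalks, stood at 5.26, 5.39 and 5.61 log2 CPM in DKO livers, against 4.90, 5.18 and 5.51 in WT livers (log2 fold change 0.24 with SE 0.11; limma adjusted p = 0.278). WT 1 was the WT library that reached highest into the DKO range. Atp6v1h, a regulatory subunit, stood at 5.44, 5.58 and 5.88 log2 CPM in DKO livers and at 5.40, 5.52 and 5.70 in WT livers (log2 fold change 0.09 with SE 0.09; limma adjusted p = 0.683). The stalk subunits Atp6v1c1 and Atp6v1e1 and the rotor subunit Atp6v1d had log2 fold changes of 0.17, 0.12 and 0.20, each within the spread between libraries. The rotor subunit Atp6v1f was one of only 2 pump genes below 0, at -0.12 on the log2 scale (SE 0.09, limma adjusted p = 0.534).

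**Figure D2:**
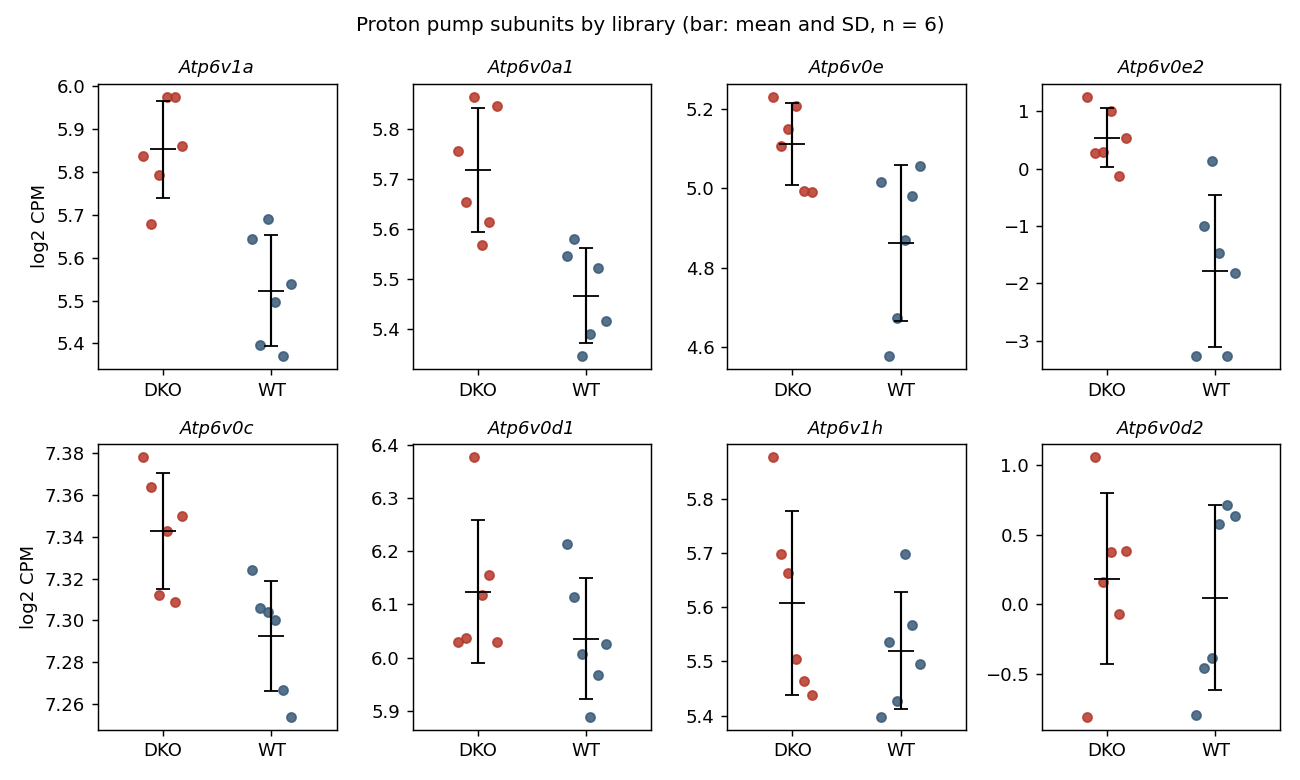
Deposited log2 CPM of pump subunits in each library, DKO left and WT right; bars give the mean and SD (n = 6 each). For Atp6v1a 5 of 6 DKO points lie above every WT point, and Atp6v0e2 is the gene with WT points at the lowest value of the table.

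In the V0 sector, the widest difference belonged to Atp6v0e2, an isoform of the small membrane subunit e. It was scarce: its values were -0.13, 0.41 and 1.25 log2 CPM in DKO livers, against -3.26, -1.64 and 0.13 in WT livers. WT 1 and WT 5 stood at the lowest value in the table, and WT 3 alone reached into the DKO range. DKO exceeded WT by 2.32 log2 units (SE 0.56; adjusted p by limma 0.0535), a value that depends on how low values were handled before deposition. On a log2(CPM + 1) scale the difference was 0.86 and the gene was called (limma adjusted p = 0.0387), as it was without WT replicate 3 (log2 fold change 2.70, limma adjusted p = 0.0303).

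The a subunits form the path by which protons cross the membrane. Atp6v0a1 stood at 5.57, 5.71 and 5.87 log2 CPM in DKO livers, against 5.34, 5.47 and 5.58 in WT livers, with 5 of 6 DKO libraries above every WT library (log2 fold change 0.25 with SE 0.08; limma adjusted p = 0.113). Its paralog Atp6v0a2 had a log2 fold change of 0.01 (95% interval -0.30 to 0.32). Atp6v0e, the main e subunit, stood at 4.99, 5.13 and 5.23 log2 CPM in DKO livers, against 4.58, 4.92 and 5.06 in WT livers (log2 fold change 0.25 with SE 0.10; limma adjusted p = 0.211). WT 6 and WT 1 lay above the lowest DKO libraries, DKO 5 and DKO 6, and the other WT libraries lay below all DKO libraries.

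Atp6v0c encodes the ring of proteolipids that turns in the membrane, and its spread between libraries was the smallest among the pump genes. It stood at 7.31, 7.35 and 7.38 log2 CPM in DKO livers and at 7.25, 7.30 and 7.32 in WT livers, with an SD of 0.03 in each group. The difference was 0.05 on the log2 scale (SE 0.05, adjusted p by limma 0.689). Atp6v0d1, which joins the rotor to the ring, stood at 6.03, 6.08 and 6.38 log2 CPM in DKO livers, against 5.89, 6.02 and 6.21 in WT livers (log2 fold change 0.09 with SE 0.08; limma adjusted p = 0.648). Its isoform Atp6v0d2, best known from osteoclasts, stood at -0.81, 0.27 and 1.05 log2 CPM in DKO livers, against -0.80, 0.10 and 0.71 in WT livers (log2 fold change 0.13 with SE 0.38; limma adjusted p = 0.903). Its 95% interval, -0.68 to 0.94, leaves a wide range of differences undetectable. Atp6v0b, a second type of ring subunit, was the other pump gene below 0 (log2 fold change -0.05).

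Per kilobase of the longest protein-coding transcript, the common isoforms far exceeded the scarce ones. Atp6v0d1 had a median of 41.4 CPM per kilobase in DKO livers and 39.7 in WT livers, whereas Atp6v0d2 had a median of 0.474 in DKO livers and 0.421 in WT livers. Atp6v0e had a median of 12.4 CPM per kilobase in DKO livers and 10.8 in WT livers, and Atp6v0e2 had one of 0.745 in DKO livers and 0.18 in WT livers. For the G subunits, the median of Atp6v1g1 was 36.9 CPM per kilobase in DKO livers and 31.9 in WT livers, and that of Atp6v1g2, known mainly from neurons, was 1.71 in DKO livers and 1.31 in WT livers. The order of the isoforms within each pair was thus the same in both groups.

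The mean log2 CPM of the 17 pump subunits was 4.62 to 4.88 in the 6 DKO libraries and 4.35 to 4.57 in the 6 WT libraries, without overlap, a difference of 0.26. Much of that gap came from a single scarce gene. With Atp6v0e2 set aside, a choice made after its values were seen, the mean of the remaining 16 subunits was 4.83 to 5.13 in DKO libraries and 4.81 to 4.98 in WT libraries, which overlapped, and the difference was 0.14. Of these 16 subunits, 14 were higher in DKO livers and their median log2 fold change was 0.15. DKO 1 was the lowest DKO library in this mean, and WT 4 and WT 5 lay above it.

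**Figure D3:**
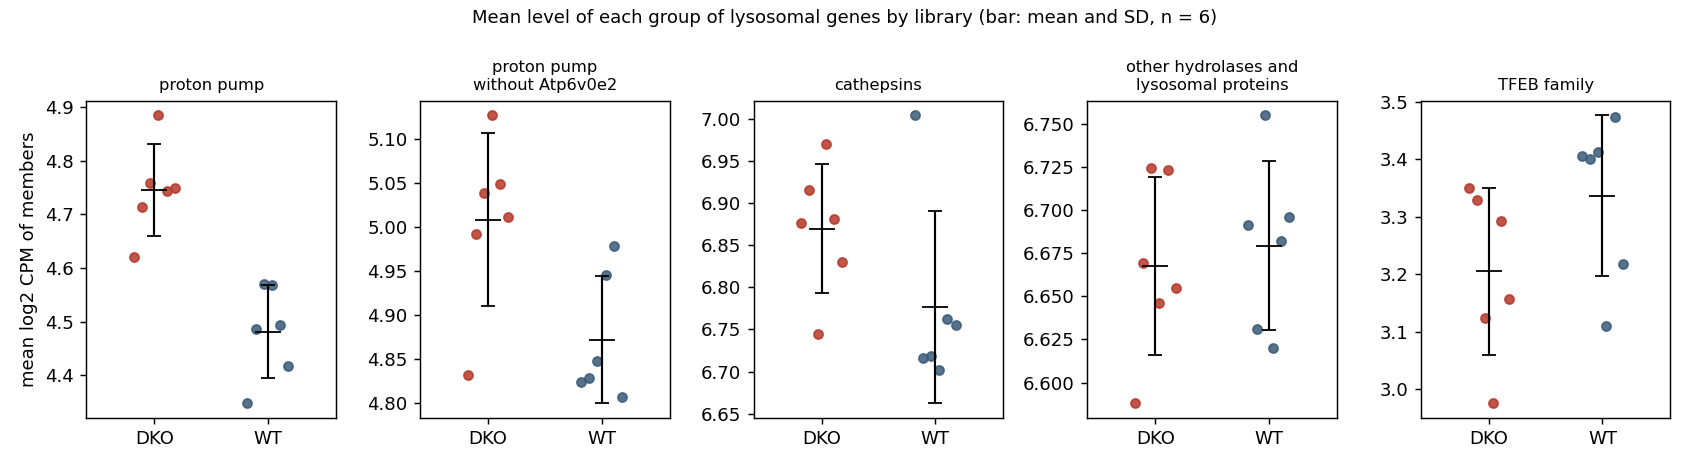
Mean log2 CPM of the members of each group in each library, DKO left and WT right; bars give the mean and SD (n = 6 each). DKO and WT libraries separate for the pump but overlap once Atp6v0e2 is set aside, and WT 1 stands above the other WT libraries for the cathepsins, at 7.005.

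The 10 cathepsins did not share a direction: 6 were higher and 4 lower in DKO livers, with a median log2 fold change of 0.09. Their mean level was 6.75, 6.88 and 6.97 log2 CPM in DKO libraries, against 6.70, 6.74 and 7.005 in WT libraries, where WT 1 was the highest of all 12. At an unadjusted p below 0.05, Ctsl, Ctsa and Ctss were higher and Ctsh was lower (40.0% of the 10, against 16.4% of all genes). By limma 0 of the 10 were called, against 1.74% of all genes.

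Ctsl encodes cathepsin L, a broad endopeptidase. It stood at 8.55, 8.78 and 9.19 log2 CPM in DKO livers, against 8.29, 8.49 and 8.63 in WT livers. Only DKO 5 fell within the WT range, and DKO 1 was the highest library. The log2 fold change was 0.34 (SE 0.10), or 1.27-fold, with a limma adjusted p of 0.106; after quantile normalization it was 0.47 and the gene was called (limma adjusted p = 0.0148).

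Ctsa encodes a serine carboxypeptidase that also protects lysosomal beta-galactosidase and neuraminidase. It stood at 6.75, 7.12 and 7.22 log2 CPM in DKO livers, against 6.66, 6.78 and 6.90 in WT livers. In DKO 3 to DKO 6 it lay above every WT library, while DKO 1 and DKO 2 lay within the WT range. DKO exceeded WT by 0.27 log2 units (SE 0.09; adjusted p by limma 0.131), and with array weights the gene was called (log2 fold change 0.34, limma adjusted p = 0.0351).

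Ctsh, an aminopeptidase, was lower in most DKO livers. It stood at 7.14, 7.25 and 7.58 log2 CPM in DKO livers, against 7.38, 7.61 and 7.75 in WT livers. Of the DKO libraries 5 lay below every WT library, and DKO 6 stood apart among them at the top of the DKO range. DKO minus WT was -0.31 on the log2 scale (SE 0.09, adjusted p by limma 0.0928). Without DKO replicate 6 the log2 fold change was -0.37 and the gene was called (limma adjusted p = 0.0336).

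Ctss encodes cathepsin S, the protease of antigen-presenting cells that trims the invariant chain of MHC class II. It stood at 4.76, 5.53 and 5.79 log2 CPM in DKO livers, against 4.43, 4.68 and 5.35 in WT livers, a log2 fold change of 0.58 (SE 0.20, limma adjusted p = 0.157), or 1.49-fold. In 4 DKO libraries Ctss lay above every WT library, whereas DKO 3 and DKO 6 lay within the WT range. WT 1 was the highest WT library. Over 20 settings the adjusted p ranged from 0.0672 to 0.292, so no setting called the gene.

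Macrophage markers were higher in the same comparison. Of 24 markers 23 were measured, and all 23 were higher in DKO livers, against 50.8% of all genes. At an unadjusted p below 0.05 there were 19 (82.6%, against 16.4% of all genes). Lyz2 and Ccr2 were the 2 called (8.7%, against 1.74% of all genes). Lyz2, the lysozyme of myeloid cells, had a log2 fold change of 0.95 (limma adjusted p = 0.0357). Ccr2, a chemokine receptor of recruited monocytes, had a log2 fold change of 1.40 (limma adjusted p = 0.0244). The summed level of the 23 markers was 613 to 985 CPM in DKO livers and 440 to 810 CPM in WT livers. Cx3cr1 alone among the 23 stood at the table's lowest value in any library (WT 1). After group means were removed, Ctss correlated with the mean of these markers at r = 0.946 over the 12 libraries. The genes most like Ctss among all genes were C1qc (r = 0.98), C1qa (0.95) and C1qb (0.95), the chains of complement C1q and members of the same marker list, with log2 fold changes of 0.56, 0.56 and 0.46. Of 8 dendritic cell markers 5 were measured, and 4 were higher in DKO livers (80.0%, against 50.8% of all genes). The same 4 had an unadjusted p below 0.05 (80.0%, against 16.4% of all genes), and 0 were called. They included Cd74, the invariant chain (log2 fold change 0.945, limma adjusted p = 0.0902), while Clec9a was lower (-0.19, limma adjusted p = 0.738). Points in these correlations share their libraries, and the part of macrophage or dendritic cell content in the difference in Ctss was not tested.

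Likeness to the macrophage markers was not shared by all cathepsins. It was 0.76 for Ctsd, 0.75 for Ctsc and 0.70 for Ctsb, but 0.14 for Ctsl, -0.13 for Ctsa and -0.32 for Ctsh, and for the pump subunit Atp6v1a it was 0.21 (all over the same 12 libraries). Likeness to the mean of the hepatocyte markers was 0.22 for Ctss, 0.33 for Ctsd, 0.56 for Ctsc and 0.68 for Ctsb. It was 0.58 for Ctsl, -0.50 for Ctsa, 0.36 for Ctsh and -0.26 for Atp6v1a. The macrophage marker mean was lowest among DKO libraries in DKO 3 and DKO 6, at 3.44 and 3.46 log2 CPM. These values lay below the 3.50 of WT 1 but above all other WT libraries, which stood at 2.87 to 3.35. In DKO 3 and DKO 6 Atp6v1a stood at 5.79 and 5.86 log2 CPM, above the highest WT value of 5.69. Ctsl stood there at 8.75 and 8.86 log2 CPM, also above the highest WT value of 8.63. The part of macrophage content in the differences in Atp6v1a and Ctsl was not tested.

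**Figure D4:**
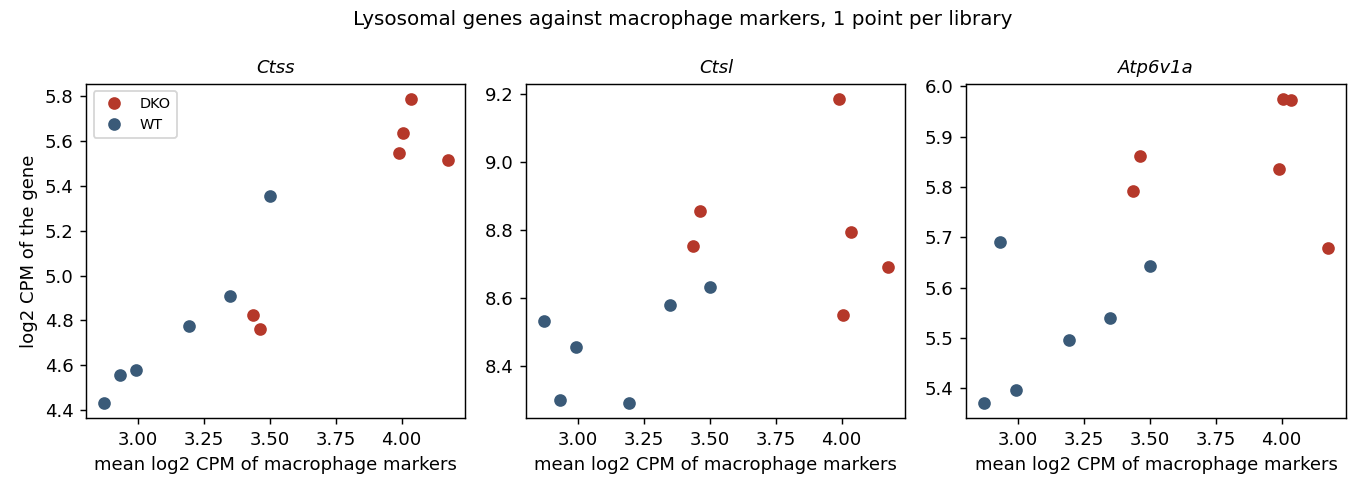
Levels in log2 CPM of Ctss, Ctsl and Atp6v1a against the mean log2 CPM of 23 macrophage markers, one point per library, DKO and WT in different colours. Ctss follows the marker mean within both groups. In DKO 3 and DKO 6, the DKO libraries with the lowest marker mean, Atp6v1a and Ctsl exceed the WT range. The marker mean of DKO 3 and DKO 6 is itself above that of every WT library except WT 1.

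The remaining cathepsins had wide overlap. Ctsb, an endopeptidase and exopeptidase, stood at 8.85, 8.92 and 9.37 log2 CPM in DKO livers and at 8.72, 8.83 and 9.23 in WT livers (log2 fold change 0.13 with SE 0.11; limma adjusted p = 0.617). The aspartic protease Ctsd stood at 8.13, 8.25 and 8.33 log2 CPM in DKO livers and at 8.06, 8.15 and 8.37 in WT livers (log2 fold change 0.06 with SE 0.07; limma adjusted p = 0.699). WT 1 was the highest of all 12 libraries for Ctsd and the highest WT library for Ctsb. Ctsz, a carboxypeptidase, had a log2 fold change of 0.12 (SE 0.10, limma adjusted p = 0.563), with 7.14, 7.35 and 7.61 log2 CPM in DKO livers and 7.09, 7.23 and 7.51 in WT livers. Ctsc, which activates serine proteases of immune cells, and the cysteine proteases Ctsf and Ctso had log2 fold changes of -0.01, -0.11 and -0.15.

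**Figure D5:**
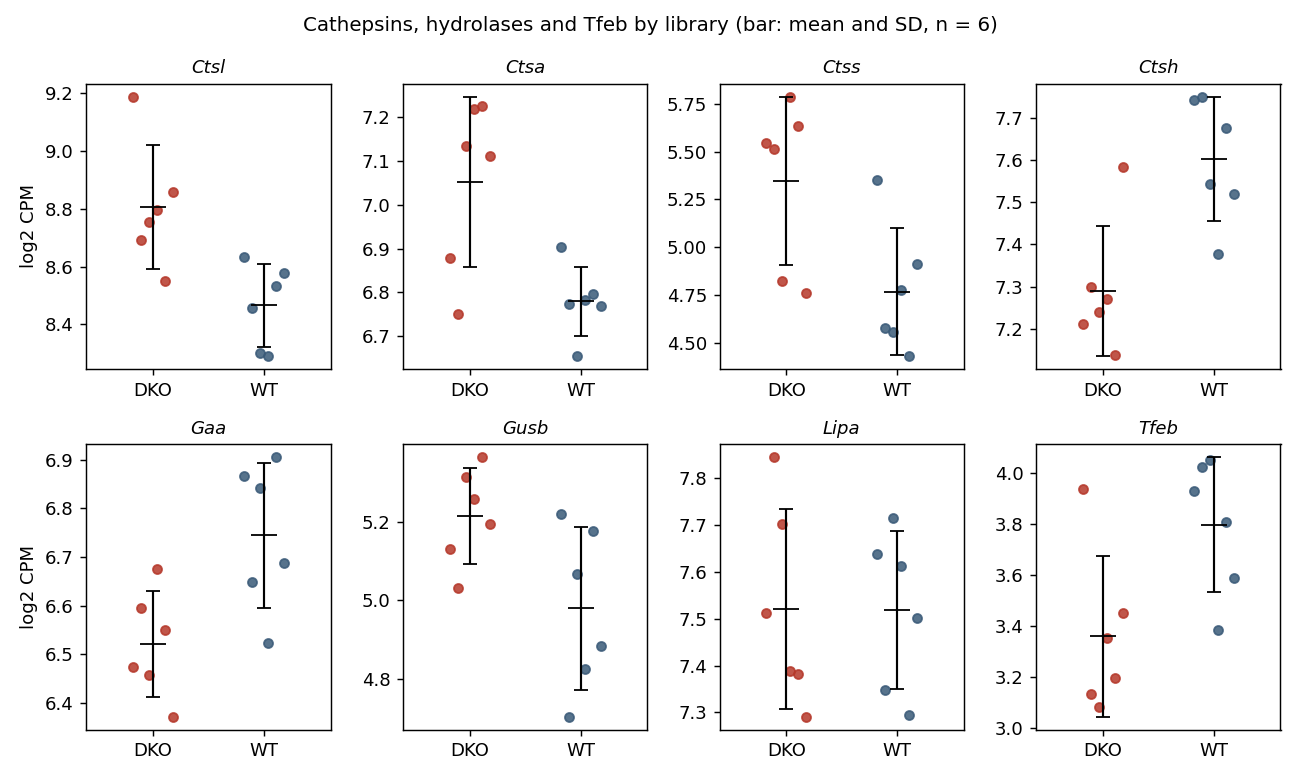
Deposited log2 CPM of 4 cathepsins, the hydrolases Gaa, Gusb and Lipa, and Tfeb in each library, DKO left and WT right; bars give the mean and SD (n = 6 each). For Ctsl 5 DKO points lie above every WT point, 5 DKO points of Ctsh lie below every WT point, and the values of Lipa are intermixed.

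Among the 13 other hydrolases and lysosomal proteins 6 were higher and 7 lower in DKO livers, and the median log2 fold change was -0.01. The number that was higher depended on the scaling, at 4 after subtraction of library medians and 9 after quantile normalization. Lipa, the acid lipase that splits cholesteryl esters and triglycerides in lysosomes, stood at 7.29, 7.45 and 7.85 log2 CPM in DKO livers and at 7.30, 7.56 and 7.71 in WT livers. The libraries were intermixed, and the log2 fold change was 0.00 with a 95% interval of -0.23 to 0.23 (limma adjusted p = 0.998).

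The sugar-cleaving hydrolases split by direction. Gaa, the alpha-glucosidase that degrades lysosomal glycogen, stood at 6.37, 6.51 and 6.67 log2 CPM in DKO livers, against 6.52, 6.76 and 6.91 in WT livers (log2 fold change -0.22 with SE 0.08; limma adjusted p = 0.178). Each DKO value was under the WT mean, and 3 were under the whole WT range. Gusb, beta-glucuronidase, stood at 5.03, 5.23 and 5.36 log2 CPM in DKO livers, against 4.70, 4.98 and 5.22 in WT livers (log2 fold change 0.23 with SE 0.10; limma adjusted p = 0.270). Each DKO value was over the WT mean, and 3 were over WT 1, the highest WT library. Hexa, a hexosaminidase that degrades gangliosides, stood at 5.34, 5.69 and 5.80 log2 CPM in DKO livers, against 5.25, 5.50 and 5.61 in WT livers (log2 fold change 0.17 with SE 0.09; limma adjusted p = 0.392). The beta-galactosidase Glb1 stood at 3.59, 3.84 and 4.12 log2 CPM in DKO livers, against 3.85, 3.99 and 4.17 in WT livers (log2 fold change -0.17 with SE 0.12; limma adjusted p = 0.518). For Hexa 4 DKO libraries lay above every WT library, and for Glb1 3 lay below every WT library.

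The sphingolipid enzymes also lay on both sides of 0. Asah1, acid ceramidase, stood at 4.42, 4.71 and 4.91 log2 CPM in DKO livers, against 4.28, 4.53 and 4.73 in WT livers (log2 fold change 0.17 with SE 0.11; limma adjusted p = 0.444). Smpd1, acid sphingomyelinase, stood at 5.32, 5.49 and 5.66 log2 CPM in DKO livers, against 5.49, 5.55 and 5.67 in WT livers (log2 fold change -0.07 with SE 0.08; limma adjusted p = 0.719). Psap, the precursor of the saposins that present sphingolipids to these enzymes, stood at 8.77, 8.86 and 9.05 log2 CPM in DKO livers and at 8.71, 8.85 and 8.88 in WT livers (log2 fold change 0.06 with SE 0.07; limma adjusted p = 0.728). Grn, the precursor of granulins, stood at 7.29, 7.67 and 7.94 log2 CPM in DKO livers and at 7.13, 7.62 and 8.07 in WT livers (log2 fold change -0.05 with SE 0.15; limma adjusted p = 0.920). The groups overlapped for each of these genes.

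Of the membrane proteins, Lamp1 had the highest median level of all members per kilobase of the longest protein-coding transcript, at 285 CPM in DKO livers and 279 CPM in WT livers. This order depends on the transcript chosen, as the longest of 5 for Ctsl has 6168 bases, against 2229 for Lamp1. Lamp1 stood at 9.06, 9.31 and 9.43 log2 CPM in DKO livers and at 9.20, 9.28 and 9.40 in WT livers, with a log2 fold change of -0.01 and a 95% interval of -0.18 to 0.16 (limma adjusted p = 0.966). Lamp2, a related membrane glycoprotein with an isoform needed for chaperone-mediated autophagy, stood at 8.66, 8.99 and 9.11 log2 CPM in DKO livers, against 9.04, 9.07 and 9.31 in WT livers (log2 fold change -0.19 with SE 0.09; limma adjusted p = 0.328). Of the DKO libraries 4 lay below every WT library, DKO 4 and DKO 5 furthest. Scarb2, the receptor that carries glucocerebrosidase to lysosomes, stood at 7.75, 7.77 and 7.81 log2 CPM in DKO livers and at 7.75, 7.83 and 8.05 in WT livers (log2 fold change -0.08 with SE 0.06; limma adjusted p = 0.586). Mcoln1, the calcium channel TRPML1, stood at 4.69, 5.40 and 5.67 log2 CPM in DKO livers and at 4.95, 5.27 and 5.74 in WT livers (log2 fold change 0.00 with SE 0.17; limma adjusted p = 0.996).

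Tfeb, which encodes the transcription factor that drives many lysosomal genes, was lower in most DKO livers. It stood at 3.08, 3.27 and 3.94 log2 CPM in DKO livers, against 3.38, 3.87 and 4.05 in WT livers (log2 fold change -0.44 with SE 0.16; limma adjusted p = 0.187). In DKO 2 to DKO 5 it lay below every WT library, while DKO 6 lay near the lowest WT library and DKO 1 within the upper WT range. Tfe3 stood at 4.18, 4.60 and 4.90 log2 CPM in DKO livers and at 4.29, 4.52 and 4.93 in WT livers (log2 fold change 0.02 with SE 0.14; limma adjusted p = 0.965). Mitf stood at 1.21, 1.55 and 2.22 log2 CPM in DKO livers and at 1.25, 1.64 and 2.17 in WT livers (log2 fold change 0.02 with SE 0.22; limma adjusted p = 0.976). These RNA levels do not report on the proteins' entry into the nucleus, which was not measured.

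Promoters were searched for CACGTG, the core of the sequence bound by TFEB, and for TCACGTGA, a longer form that holds it; each reads the same on both strands. Sequences came from a RefSeq table of build GRCm38.p6, with windows of 300 bases from 250 before the start of transcription to 50 after it, and 34 of 43 members matched. TCACGTGA was in 6 of these 34 members (17.6%), against 2.18% of the 9224 tested genes with a window and 1.12% of all 27025 genes in the table. The shorter CACGTG was in 12 of 34 members (35.3%), against 11.6% of tested genes and 8.09% of all genes. The windows of the 6 members with the longer form are shown because they hold the sequence that links members of different groups. Each is on its gene's strand, with the longer form in capitals.
Atp6v1a, chr16:44139358-44139417, minus strand: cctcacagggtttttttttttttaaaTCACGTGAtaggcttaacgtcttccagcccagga
Atp6v0d1, chr8:105566035-105566094, minus strand: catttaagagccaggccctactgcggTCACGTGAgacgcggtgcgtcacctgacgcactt
Atp6v0e, chr17:26676372-26676431, plus strand: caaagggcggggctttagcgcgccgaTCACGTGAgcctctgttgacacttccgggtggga
Ctsa, chr2:164833734-164833793, plus strand: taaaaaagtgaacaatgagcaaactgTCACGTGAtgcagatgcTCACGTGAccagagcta
Ctsd, chr7:142387893-142387952, minus strand: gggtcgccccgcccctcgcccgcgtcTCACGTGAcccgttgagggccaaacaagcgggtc
Mcoln1, chr8:3500447-3500506, plus strand: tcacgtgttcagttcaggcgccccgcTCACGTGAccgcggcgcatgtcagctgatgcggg

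The first base of the motif lay 132 bases before the start in Atp6v1a and 99 before it in Ctsd, and 46 before it in Mcoln1. In Atp6v0d1 the motif spanned the start itself, and in Atp6v0e it lay just after it. Ctsa was the only one of these 6 with a second copy of TCACGTGA in the stretch shown. The stretch of Mcoln1 also held a separate CACGTG at its beginning, left in lower case. All 6 had a log2 fold change above 0, with a median of 0.17, and 3 of them (Atp6v1a, Ctsa and Atp6v0e) had an unadjusted p below 0.05. Mcoln1 was the lowest of the 6, at 0.004, and its direction changed in 7 of 20 settings. The 28 members without it had a median of 0.01, with 15 above 0. With the shorter form the median was 0.03 for the 12 members holding CACGTG (7 above 0) and 0.04 for the 22 without it (14 above 0). Over all tested genes the medians were 0.03 for the 201 holding TCACGTGA (109 above 0) and 0.00 for the 9023 without it. Of the 201, 2 were called (0.995%) and 25 had an unadjusted p below 0.05 (12.4%), against 16.2% of the 9023. A match describes the letters in the window and is not evidence of binding.

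The promoters of Atp6v0e2 and Ctss, the members with the largest fold changes, held neither form. Their windows follow, in lower case throughout because no motif was found.
Atp6v0e2, chr6:48537319-48537618, plus strand: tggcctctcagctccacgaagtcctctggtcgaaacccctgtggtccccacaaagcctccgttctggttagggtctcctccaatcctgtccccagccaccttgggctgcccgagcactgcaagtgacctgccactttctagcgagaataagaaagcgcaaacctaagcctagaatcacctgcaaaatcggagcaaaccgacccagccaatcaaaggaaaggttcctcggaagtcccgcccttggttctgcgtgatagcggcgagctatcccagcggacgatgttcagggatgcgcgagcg
Ctss, chr3:95526536-95526835, plus strand: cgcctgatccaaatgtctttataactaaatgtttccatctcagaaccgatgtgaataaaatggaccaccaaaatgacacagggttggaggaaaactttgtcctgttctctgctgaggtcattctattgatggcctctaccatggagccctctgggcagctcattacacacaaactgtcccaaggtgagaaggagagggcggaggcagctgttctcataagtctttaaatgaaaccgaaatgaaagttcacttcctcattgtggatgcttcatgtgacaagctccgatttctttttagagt

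Other lysosomal and related genes were read from lists outside the symbol rule. Of 12 pump partners 10 were higher in DKO livers and 0 were called by limma, also with 0 at an unadjusted p below 0.05; they included Tcirg1, the a3 subunit that the symbol rule misses (log2 fold change 0.02), and the accessory subunit Atp6ap1 (0.25, limma adjusted p = 0.367). Of 49 further hydrolases and their helpers 27 were higher and 7 had an unadjusted p below 0.05 (14.3%, against 16.4% of all genes). The 1 that was called (2.04%, against 1.74% of all genes) was Pla2g7. It encodes a phospholipase that macrophages secrete rather than a lysosomal hydrolase, and no other gene of this list was called. Pla2g7 stood at 2.54, 3.09 and 3.75 log2 CPM in DKO livers, against 1.73, 2.09 and 2.48 in WT livers, without overlap (log2 fold change 1.02, limma adjusted p = 0.0406). Of 34 lysosomal membrane and export proteins 19 were higher, 10 had an unadjusted p below 0.05 (29.4%) and 2 were called (5.88%). Cd63, a tetraspanin of late endosomes and lysosomes, stood at 2.28, 2.69 and 3.06 log2 CPM in DKO livers, against 1.17, 1.37 and 1.81 in WT livers (log2 fold change 1.24 with SE 0.18; limma adjusted p = 0.00397). Gpnmb, a membrane glycoprotein of macrophages, stood at 1.17, 2.11 and 3.45 log2 CPM in DKO livers, against -3.26, -2.80 and -0.37 in WT livers, with 3 WT libraries at the floor of the table (limma adjusted p = 0.000851). Neither gene overlapped between the groups. The median log2 fold changes of the 3 lists were 0.10, 0.01 and 0.08.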

How the data were processed

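The deposited table holds log2 CPM of 12 liver libraries, filtered and normalized by the authors per the file's name. For the rule on low values, the added count and the scaling factors, details were not given in the sources used here. Per the submitters' processing notes, the tools were kallisto 0.46.2, edgeR and limma and the build was GRCm39 (mm39), without further detail on their use. Groups came from the genotype label. The table had 12285 rows; 1 row without a name, 0.0075% to 0.0148% of each library's CPM, was left out. Back-transformed values summed to 906047 to 1088119 CPM per library, the lowest value was -3.26 log2 CPM (0.104 CPM), and pairs of libraries correlated at r = 0.92 to 0.969. Whole reads were not recovered from these log2 values, so depth is unknown.

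The comparison used a linear model per gene (lmFit and trended eBayes of limma 3.58.1, R 4.3.3, 2-sided tests) over all 12 libraries without covariates, and p-values were adjusted over 12284 genes. They measure the spread between these libraries, which may be technical. In simulated data of the same size, 32.8%, 74.6% and 90.9% of genes changed by 0.5, 1 and 2 on the log2 scale were called. Members and lists were chosen with earlier results of these data known. Every member is named; values by group are given for called members, those with an unadjusted p below 0.05 and a fixed set of central genes. Ctsk, in that set, was not analysed here. Likeness is Pearson's r over 12 libraries after removal of group means. Promoters are from RefSeq (GRCm38.p6), and transcript lengths from GENCODE M21; neither is the build of the deposited data. Figures were drawn with matplotlib 3.10.9.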

Additional observations from a re-analysis of the deposited data

Results flagged for a closer look

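Of 94 groups of 6 values examined among the members and their group means, 9 had a single library far from the other 5, where chance gives about 1 in 20. High DKO values were those of Atp6v0d1 in DKO 3, at 6.38 log2 CPM with the next library at 6.155, and of Ctsh in DKO 6, at 7.585 with the next at 7.30. Atp6v1g2, a scarce pump gene, was low in DKO 1, at -0.23 log2 CPM with the next DKO library at 1.27, and also in WT 6, at -0.20 with the next WT library at 0.86. Among WT libraries, WT 1 was high for Ctsd, at 8.37 log2 CPM with the next at 8.16, and for the mean of the cathepsins, at 7.005 with the next at 6.76. Lamp2 was high in WT 6, at 9.315 log2 CPM, and Scarb2 was high in WT 3, at 8.055 log2 CPM. Psap was low in WT 2, at 8.715 log2 CPM. WT 1 was also the highest WT library in the mean of the macrophage markers, at 3.50 log2 CPM.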

How the results depend on the processing

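Depth is unknown. Simulated differences of 0.5 in log2 CPM were called in 32.8% of cases, and smaller ones were not simulated. That simulation covered all 12284 genes, whose median SE was 0.16, against 0.095 for the 43 members. The share for the members may therefore differ. The alternatives were 20 settings, 12 of which left out a library. The number of genes called among all genes was 214, and it became 138 without the mean trend, 109 after quantile normalization, 356 with array weights, and 92 to 373 with a library left out; it moved by over 1.5 times without each WT replicate and without DKO replicates 1, 3 and 4. The number of members called was 0, and it became 1 on the log2(CPM + 1) scale (Atp6v0e2), 1 after quantile normalization (Ctsl), 2 with array weights (Atp6v1a and Ctsa), and 0 to 1 with a library left out. The median log2 fold change of the cathepsins was 0.225 after quantile normalization; the cause was not tested. With the replicate number as a block (replicate block), 397 genes and 0 members were called. After removal of group means, libraries of the same number correlated at r = -0.08 to 0.29, with 2 of 6 above 0.1. WT 1, WT 3, WT 4 and WT 5 correlated best with the DKO library of their own number. WT 2 correlated best with DKO 6, and WT 6 with DKO 1. Whether the numbers pair the samples is therefore not known. Directions changed only for uncalled members near 0. They were Atp6v0a2 (-0.011), Lipa (-0.020), Mcoln1 (-0.017) and Tfe3 (-0.002) after subtraction of library medians; Ctsc (0.029), Grn (0.078), Lamp1 (0.093), Mitf (-0.101) and Scarb2 (0.040) after quantile normalization; and Atp6v0b (0.005), Ctsc (0.062), Lipa (-0.021) and Tfe3 (-0.084) with array weights. With a library left out, the log2 fold change ranged from -0.066 to 0.092 for Atp6v0a2, -0.040 to 0.332 for Atp6v0d2, -0.089 to 0.129 for Ctsc, -0.153 to 0.035 for Grn, -0.042 to 0.030 for Lamp1, -0.063 to 0.048 for Lipa, -0.077 to 0.120 for Mcoln1, -0.088 to 0.124 for Mitf and -0.045 to 0.10 for Tfe3.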

Other observations

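Of 34 genes of autophagy and nutrient signalling by TFEB, 23 were higher in DKO livers (67.6%, against 50.8% of all genes). By limma 0 were called and 4 had an unadjusted p below 0.05 (11.8%, against 16.4% of all genes), with a median log2 fold change of 0.04. Sqstm1, the autophagy receptor p62, had a log2 fold change of -0.04 (limma adjusted p = 0.927). Of 5 cystatins, the inhibitors of cysteine cathepsins, 2 were higher and 0 were called, with none at an unadjusted p below 0.05; Cst3, the main secreted cystatin, had a log2 fold change of -0.10 (limma adjusted p = 0.539).

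Typical pairs of members showed little shared variation between libraries, although Ctss, Ctsd, Ctsc and Ctsb each followed the macrophage markers. Psap did so at r = 0.68, whereas Smpd1 varied in the opposite direction, at r = -0.68. Among the 17 pump subunits this r ranged from -0.63 for Atp6v0a2 to 0.56 for Atp6v1b2. Ctsc and Ctsb also followed the hepatocyte markers, at r = 0.56 and 0.68. After removal of group means, the median Pearson r over the 12 libraries was 0.03 among the 136 pairs of pump subunits, 0.09 among the 45 pairs of cathepsins and 0.07 among the 78 pairs of other hydrolases and lysosomal proteins, against 0.00 over all pairs of genes. The genes most like Atp6v0d2 were 2700081O15Rik (r = 0.92), Sqrdl (0.86) and Fam89b (0.86), with log2 fold changes of -0.34, -0.28 and -0.07.

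Of 20 hepatocyte markers 15 were lower in DKO livers and 2 were called, Serpina1c (log2 fold change -0.55, limma adjusted p = 0.0282) and Asgr1 (-0.35, limma adjusted p = 0.0452). All 10 endothelial markers were higher and 0 were called by limma, with 4 at an unadjusted p below 0.05 (40.0%, against 16.4% of all genes). Of 10 stellate cell markers 8 were higher (80.0%, against 50.8% of all genes) and 0 were called. At an unadjusted p below 0.05 there were 6 stellate cell markers (60.0%, against 16.4% of all genes).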
